A study of Mus musculus with 3 samples.

Results

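The genes of antigen presentation by the mouse major histocompatibility complex (MHC, called H2 in the mouse) were followed in RNA bound to the chromatin of macrophages. They were taken as every annotated gene whose symbol starts with H2- (45 genes) and 7 genes named singly, B2m, Tap1, Tap2, Tapbp, Nlrc5, Ciita and Cd74, which makes 52 of 55536 annotated genes. By class they comprised 2 classical class I genes, 30 nonclassical class I genes, 11 class II genes, 4 genes of peptide loading and assembly, 2 regulators, the invariant chain gene Cd74 and 2 H2- symbols outside these classes. The choice used symbols only and no measured value.

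The series held 3 libraries, labelled biological replicates 1, 2 and 3, of total RNA depleted of ribosomal RNA. The cells were macrophages grown from C57BL/6J bone marrow (BMDM, primary cells). They had been given 100 ng/ml lipid A for 120 min before the fraction of RNA bound to chromatin was taken. Lipid A is the part of bacterial lipopolysaccharide that Toll-like receptor 4 recognises. All 3 libraries carry the same donor label, sex and age were not collected, the labels do not say whether the cells were separate cultures, and untreated cells were not analysed here, so no value below is a response to lipid A and p-values measure only the spread between these libraries.

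Class I molecules are made of a heavy chain and beta-2 microglobulin, carry peptides cut by the proteasome and are found on nearly all nucleated cells. Class II molecules are pairs of alpha and beta chains that carry peptides cut in endosomes, and in macrophages their level depends strongly on activation by interferon-gamma. RNA on chromatin holds transcripts that are being made or have not yet been released, so it stands closer to synthesis than cytoplasmic RNA does.

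Promoter sequences are shown first because the classes are known to be driven through short motifs close to the start site. RefSeq (GRCm38.p6) held a promoter of 300 bases, 250 before to 50 after the start, for 35 of the 52 genes. The 5 printed here are both classical class I genes, the class I light chain B2m, the highest nonclassical gene H2-T23 and the class II gene H2-Aa. They lie at chr17:34000298-34000597 on the minus strand (H2-K1), chr17:35262844-35263143 on the plus strand (H2-D1), chr2:122147437-122147736 on the plus strand (B2m), chr17:36032652-36032951 on the minus strand (H2-T23) and chr17:34287774-34288073 on the minus strand (H2-Aa). Capitals mark a match on either strand to the NF-kB consensus, to the core of the interferon-stimulated response element or to the X1 box of MHC promoters. The patterns searched for these 3 motifs were set from general knowledge of them, not from the deposited files, and are given by name only.
H2-K1: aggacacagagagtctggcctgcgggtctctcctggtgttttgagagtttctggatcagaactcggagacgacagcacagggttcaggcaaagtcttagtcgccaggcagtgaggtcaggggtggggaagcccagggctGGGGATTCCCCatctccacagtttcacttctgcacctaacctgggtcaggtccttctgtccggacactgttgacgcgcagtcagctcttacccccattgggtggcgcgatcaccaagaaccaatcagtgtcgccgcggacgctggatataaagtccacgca
H2-D1: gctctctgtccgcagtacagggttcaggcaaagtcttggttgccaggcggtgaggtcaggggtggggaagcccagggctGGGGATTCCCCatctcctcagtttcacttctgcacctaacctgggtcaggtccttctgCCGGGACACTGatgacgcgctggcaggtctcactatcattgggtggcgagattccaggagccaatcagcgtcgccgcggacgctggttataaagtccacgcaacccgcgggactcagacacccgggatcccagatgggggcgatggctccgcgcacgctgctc
B2m: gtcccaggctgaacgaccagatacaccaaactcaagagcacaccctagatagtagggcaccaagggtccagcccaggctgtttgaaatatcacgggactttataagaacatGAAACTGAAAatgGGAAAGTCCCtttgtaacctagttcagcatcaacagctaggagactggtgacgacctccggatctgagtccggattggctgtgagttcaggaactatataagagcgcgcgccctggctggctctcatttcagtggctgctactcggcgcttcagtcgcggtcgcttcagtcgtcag
H2-T23: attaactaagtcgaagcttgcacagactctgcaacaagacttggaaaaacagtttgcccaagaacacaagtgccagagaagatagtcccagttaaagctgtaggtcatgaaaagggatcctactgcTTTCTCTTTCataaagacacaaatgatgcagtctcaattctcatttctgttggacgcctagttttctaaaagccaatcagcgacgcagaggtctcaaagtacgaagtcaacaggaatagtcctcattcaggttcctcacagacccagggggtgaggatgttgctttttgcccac
H2-Aa: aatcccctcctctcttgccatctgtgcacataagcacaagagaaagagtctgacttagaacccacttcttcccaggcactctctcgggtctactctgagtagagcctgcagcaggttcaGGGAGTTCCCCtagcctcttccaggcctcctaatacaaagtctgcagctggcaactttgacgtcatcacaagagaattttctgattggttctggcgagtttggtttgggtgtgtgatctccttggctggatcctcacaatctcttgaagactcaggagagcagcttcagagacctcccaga

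In H2-K1 the NF-kB consensus matched in overlapping positions from base 140 to 150, and in H2-D1 from base 80 to 90, with the same 11 letters in both. B2m held the interferon element core from base 112 to 121 and the NF-kB consensus from base 125 to 134. H2-T23 held the interferon element core alone, from base 127 to 136, and H2-Aa an NF-kB match from base 120 to 130. The Y box (ATTGG) was present in all 5.

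The NF-kB consensus was found in 10 of the 35 promoters, namely H2-K1, H2-D1, B2m, H2-Q4, H2-Q6, H2-Q7, H2-T22, H2-M2, H2-M3 and H2-Aa. All 10 belonged to the 18 promoters of genes that averaged 1 TPM or more (transcript abundance per length, scaled to a fixed total in each library), and none to the 17 promoters of genes below it. Among all 32851 RefSeq promoters 4.51% held it, with 5.34% in protein-coding genes of at least 1 TPM and 4.65% in those below. The interferon element core was in 3 of the 35, B2m, H2-T23 and H2-T22, against 3.44% of all promoters. The Y box was in 31 of the 35, against 37.4% of all promoters, and by detection it was in 16 of 18 and 15 of 17. The X1 box was in 10 of the 35, against 17.6%, and the core of the X2 box (TGACG), which can lie next to the X1 box, in 14 of the 35, against 20.8%. Many of these genes are copies of each other, so their promoters are not independent, and a match is no evidence of binding.

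By position, 48 of the 52 genes lie on chromosome 17 (GENCODE M21, mm10), from Tapbp at chr17:33915899-33929292 to H2-M2 at chr17:37480851-37483552. The other 4 are B2m on chromosome 2, Nlrc5 on chromosome 8, Ciita on chromosome 16 and Cd74 on chromosome 18. Library totals were 19751051, 20372850 and 21984526 expected counts in annotated genes, of which these genes held 66296, 75815 and 79718, or 0.336%, 0.372% and 0.363%. Libraries were made from 1000, 250 and 500 ng of RNA. Replicate 2 stood apart in RNA that is mostly cytoplasmic, with a median of 48.3 TPM over 25 ribosomal protein genes against 15.7 and 17 TPM in replicates 1 and 3, and of 246 TPM over mitochondrially encoded protein genes against 32.2 and 23 TPM. Results that rest on it are given with and without it. Among cell type markers, 10 of 10 macrophage genes averaged at least 1 TPM, against 0 of 8 B cell genes, 1 of 8 dendritic cell genes (Itgax, 3.81 TPM) and 1 of 6 T cell genes (Lck, 3.66 TPM). These counts change with the other quantifier, explained below. There Cr2 (B cell) averaged 1.51 TPM, Zbtb46 (dendritic cell) 1.58 TPM and Cd3d (T cell) 7.68 TPM.

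The chromatin RNA of antigen presentation was dominated by class I. Of the 52 genes, 27 averaged at least 1 TPM and 25 reached it in every library, where 41.5% of protein-coding genes averaged at least 1 TPM. Their TPM summed to 2125, 2709 and 2604 in replicates 1, 2 and 3. On average the 2 classical genes held 44.5% of that sum, the loading genes 25.1%, the nonclassical genes 18%, the regulators 10.4%, the class II genes 1.24% and Cd74 0.478%. The loading genes summed to 444, 838 and 610 TPM in replicates 1, 2 and 3, and the nonclassical genes to 396, 383 and 557 TPM. The gap between these 2 groups was thus widest in replicate 2. By class, at least 1 TPM was reached by 2 of 2 classical, 12 of 30 nonclassical and 5 of 11 class II genes, and by every loading gene, both regulators and Cd74.

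**Figure D1:**
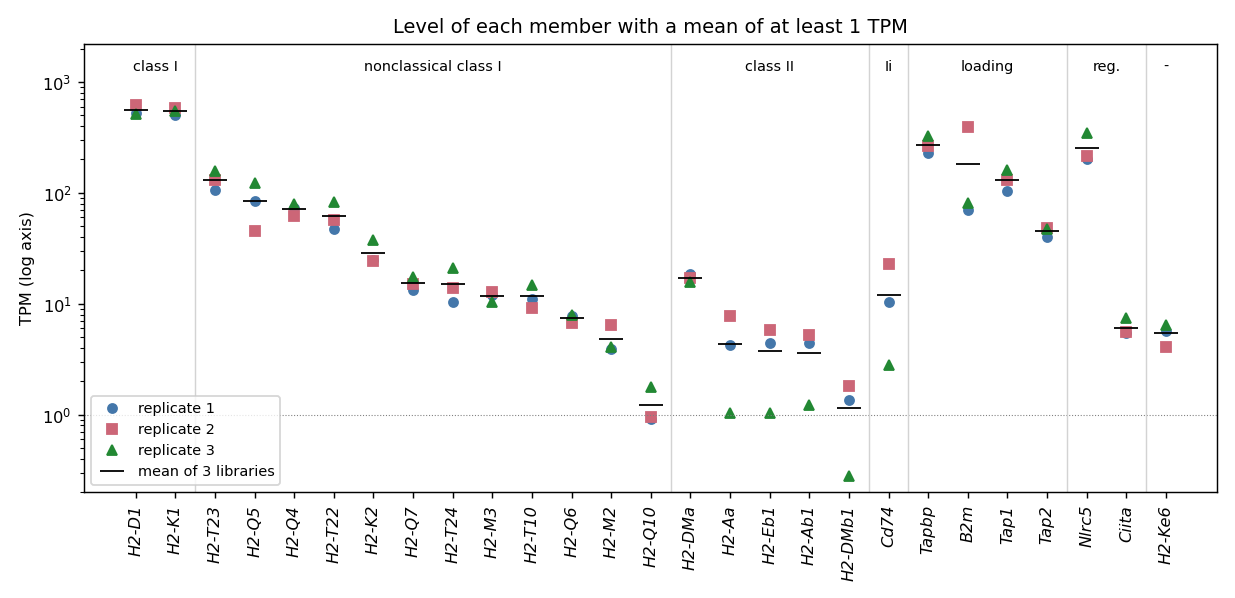
TPM (log axis) of the 27 genes that averaged 1 TPM or more, with 1 point per library and a bar at the mean of 3 libraries. Columns are grouped as classical class I, nonclassical class I, class II, the invariant chain (Ii), loading genes, regulators (reg.) and H2-Ke6 outside the classes. H2-D1 and H2-K1 lie above all others, and the 5 class II genes and Cd74 have their lowest point in replicate 3.

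H2-K1 and H2-D1 encode the classical heavy chains that present peptides to CD8 T cells. H2-D1 had 529, 622 and 510 TPM in replicates 1, 2 and 3, and H2-K1 had 500, 583 and 547 TPM. Their means, 554 ± 60.0 and 543 ± 41.5 TPM (SD, n = 3), exceeded 99.9% of protein-coding genes each and did not differ beyond their spread. The ratio of H2-D1 to H2-K1 was 1.06, 1.07 and 0.93 in the 3 libraries. Of their windows of 50 nt, 9.63% (H2-K1) and 12.8% (H2-D1) also occur in transcripts of other genes.

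Of the loading genes, tapasin (Tapbp), which holds empty class I molecules at the peptide transporter, had 231, 265 and 322 TPM. The transporter subunits Tap1 and Tap2 averaged 131 ± 27.7 and 45.3 ± 4.32 TPM (SD, n = 3), and the ratio of Tap1 to Tap2 was 2.58, 2.72 and 3.34. Tap2 averaged 87.7 TPM with the other quantifier, a transcript table that the authors made directly from the reads, which lowers that ratio to 1.42. Tap1 overlaps the proteasome gene Psmb9 on the opposite strand, and Tapbp overlaps Zbtb22 and Gm19412.

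B2m, the light chain shared by all class I molecules, had 69.5, 395 and 80.6 TPM in replicates 1, 2 and 3. Its mean of 182 ± 185 TPM (SD, n = 3) fell to 75.1 TPM without replicate 2. The ratio of B2m to H2-K1 was 0.139, 0.678 and 0.148, and 0.231, 0.971 and 0.411 with the other quantifier. Over all isoforms B2m was thus below H2-K1 in each library, but close to it in replicate 2 with the other quantifier. In coding isoforms alone H2-K1 had 136, 213 and 108 TPM, which B2m exceeded in replicate 2. None of the windows of 50 nt of B2m occurs in another gene.

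Nlrc5, the transactivator of class I genes, had 200, 213 and 345 TPM. Ciita, the transactivator of class II genes, had 5.44, 5.52 and 7.38 TPM. Nlrc5 was 36.8, 38.6 and 46.7 times Ciita in the 3 libraries, and the groups of values did not overlap.

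The nonclassical genes ranged from 131 TPM to 0. H2-T23, which encodes Qa-1, a ligand of the inhibitory receptor CD94/NKG2A on natural killer cells, was the highest with 106, 130 and 157 TPM. H2-K1 was 4.71, 4.50 and 3.48 times as high. Apart from H2-Q5, described next, H2-Q4 followed with 73.5, 61.4 and 78.8 TPM, and H2-T22, whose product is bound by some gamma delta T cell receptors, with 47.1, 57.5 and 82.9 TPM. The ranges of these 3 genes each overlapped with that of the next gene in order of mean TPM.

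H2-Q5, annotated as a polymorphic pseudogene, had 85.0, 44.9 and 122 TPM. H2-Q5-201, a processed transcript of 172 nt, held 58.4, 14.9 and 85.0 TPM of it on 19.2, 2.64 and 17.7 expected counts, which is 68.7%, 33.2% and 69.4% of the gene. In replicate 2 the retained-intron isoform held more, at 49.1%. With the other quantifier the short transcript averaged 13.2 TPM and the retained-intron isoform 36.0 TPM. In scaled counts H2-Q5 spanned 1.20-fold, with 31.8, 26.6 and 30.4 CPM (expected counts relative to the scaled library size).

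H2-K2, a transcribed pseudogene next to H2-K1, averaged 28.8 ± 7.67 TPM (SD, n = 3). H2-Q7 and H2-Q6, both of the Qa-2 group, averaged 15.3 ± 2.15 and 7.46 ± 0.629 TPM. H2-T24 averaged 15.1 ± 5.48 TPM, H2-M3, which presents N-formylated peptides, 11.8 ± 1.25 TPM, and H2-T10, a near copy of H2-T22, 11.7 ± 2.88 TPM. H2-M2 averaged 4.84 ± 1.41 TPM. H2-Q10, known as a secreted class I chain of liver, averaged 1.22 ± 0.494 TPM, but 9.55 TPM with the other quantifier.

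These copies share sequence. H2-Q5 shares 36.4% of its windows of 50 nt with other genes, H2-T22 34.5%, H2-T10 32.9%, H2-Q6 32% and H2-Q7 26.4%, so their reads could be split wrongly. The deposited spread of a count over reassignments of shared reads was small, from 0.104% (H2-T22) to 1.02% (H2-Q6) of the count in these 5 genes. The ratio of H2-T22 to H2-T10 was 5.29, and 4.96 with the other quantifier (geometric means). That of H2-Q7 to H2-Q6 was 2.04, and 1.52 with the other quantifier.

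The remaining 18 nonclassical genes were near or at 0. H2-T-ps averaged 0.110 TPM and H2-M10.2 0.020 TPM. The other 16 had 0 counts in every library. They were H2-M10.1, H2-M10.3, H2-M10.4, H2-M10.5, H2-M10.6 and H2-M10.5-ps1, of a family known from vomeronasal neurons, and H2-M1, H2-M5, H2-M6-ps, H2-M9, H2-M11, H2-T3, H2-Bl, H2-Q1, H2-Q2 and H2-Q3. H2-T3 encodes the thymus leukaemia antigen of the gut epithelium. A count of 0 allows up to 3 counts, or 0.152, 0.147 and 0.136 CPM in the 3 libraries, for counting error only. With the other quantifier, 10 of the 19 genes at 0 over all classes stayed at 0, and H2-Bl averaged 2.80 TPM.

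**Figure D2:**
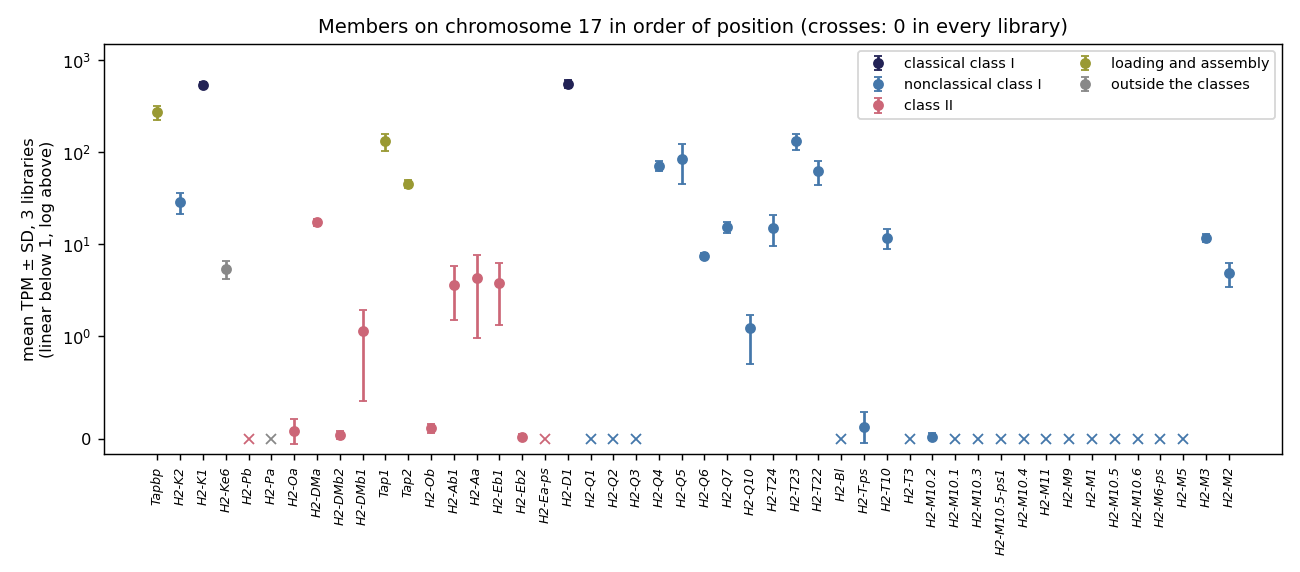
Mean TPM with SD (n = 3 libraries) of the 48 genes on chromosome 17, ordered by position from left to right and evenly spaced, on an axis that is linear below 1 TPM and logarithmic above. Crosses mark genes with 0 in every library. High class I genes stand at both ends of the class II stretch, the H2-Q and H2-T blocks mix high and silent genes, and in the H2-M block H2-M3 and H2-M2, at its end, are the only genes above 1 TPM.

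Class II RNA was low. H2-Ab1 and H2-Aa, which encode the beta and alpha chains of I-A, the conventional class II molecule of this strain, had 4.46, 5.22 and 1.23 TPM and 4.26, 7.76 and 1.03 TPM in replicates 1, 2 and 3. H2-Eb1, the beta chain of I-E, had 4.46, 5.82 and 1.04 TPM. Its partner H2-Ea-ps, a gene inactivated by a deletion in this strain, had 0 in every library. H2-DMb1, the beta chain of the peptide editor H2-DM, had 1.36, 1.82 and 0.28 TPM.

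The rest of class II was lower still. H2-Ob and H2-Oa, which make up the inhibitor of H2-DM and are known from B cells, averaged 0.1 and 0.07 TPM. H2-DMb2 averaged 0.037 TPM, H2-Eb2 0.020 TPM and the pseudogene H2-Pb 0 TPM. H2-Ob averaged 3.64 TPM with the other quantifier, nearly all in retained-intron isoforms, which sum to 3.63 TPM there.

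H2-DMa, the alpha chain of the editor, was the highest class II gene with 18.6, 17.2 and 15.9 TPM, but little of it was coding RNA. Its protein-coding isoforms summed to 2.04, 2.47 and 1.85 TPM. H2-DMa-203, a processed transcript of 350 nt, averaged 7.68 TPM on 35.6, 17.2 and 13.4 expected counts. H2-DMa-208 averaged 6.50 TPM, and 42.2% of its exon bases lie in exons of Brd2, a gene at 249 TPM on the opposite strand. Without a stated strand setting, reads of Brd2 and of this isoform cannot be told apart.

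Cd74, the invariant chain that blocks the class II groove until it reaches the endosome, had 10.4, 22.6 and 2.81 TPM. Its mean of 12 ± 10 TPM (SD, n = 3) became 6.63 TPM without replicate 2. The ratio of Cd74 to H2-Aa was 2.45, 2.92 and 2.73 in the 3 libraries, and 2.27, 2.46 and 1.11 with the other quantifier. H2-K1 was 117, 75.1 and 531 times H2-Aa, but 76.6, 45.9 and 83.8 times with the other quantifier. B cell markers summed to 1.11, 1.00 and 0.56 TPM and dendritic cell markers to 5.32, 6.64 and 3.39 TPM, both lowest in replicate 3. The sum over macrophage markers was lowest there too, with 643, 1778 and 601 TPM, but not every marker in it was. Mertk (66.6, 59.9 and 88.0 TPM) and Msr1 (169, 225 and 237 TPM) were highest in replicate 3. Fcgr1 and Cd68 were lowest in replicate 1. Itgax held most of the dendritic cell sum, with 4.33, 5.03 and 2.07 TPM. Not every dendritic cell or B cell marker was lowest in replicate 3, as Zbtb46 had 0.41, 1.17 and 1.10 TPM and Cr2 0.12, 0.55 and 0.45 TPM. The part of dendritic cells and B cells in the class II values was not tested.

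As a summary of each class within a library, the median of log2(TPM + 0.1) was taken over its members. Classical class I exceeded class II by 10.70, 11.71 and 11.30 on that scale, with a mean of 11.23 ± 0.51 (SD, n = 3), a size that moves with the constant added. The nonclassical median is listed at 0 TPM in every library, with 16 of the 30 genes at 0, so no size is given for its distance to the other classes. Among genes of at least 1 TPM, classical exceeded nonclassical class I by 5.16 ± 0.34 and nonclassical class I exceeded class II by 2.29 ± 1.56 (SD, n = 3). With all members the nonclassical median lay below that of class II in every library, so the order of these 2 classes depends on which genes are counted.

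Ordered by mean TPM, 22 of the 26 neighbouring pairs among the 27 detected genes overlapped in their ranges over libraries. The 4 steps without overlap came after H2-K1, Tap2, H2-K2 and H2-T10. H2-Ke6, a steroid dehydrogenase gene that lies in the complex but has no part in presentation, had 5.74, 4.12 and 6.43 TPM and shares 70.5% of its windows with Gm20427. The pseudogene H2-Pa was at 0.

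Whether the libraries differed by more than counting error was asked with a chi-square test per gene on rounded expected counts scaled by edgeR's TMM factors (0.910, 1.003 and 1.096), with Benjamini-Hochberg adjustment over 14200 genes of at least 10 mean counts. It called 26 of 27 genes tested, where 68.8% of all genes were called. At this depth small differences pass. The exception was Tapbp, with 419, 430 and 434 CPM (edgeR-scaled chi-square, adjusted p = 0.0828). Tapbp was called as well with DESeq2 size factors (chi-square, adjusted p = 0.00324), without replicate 2 (0.0359) and without replicate 3 (0.0232). The highest library exceeded the lowest 1.47-fold at the median of the 27 genes and 1.56-fold at the median of all genes, and 12 of the 27 were called and past 1.5-fold, where 44.3% of all genes were.

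Cd74, B2m and 4 class II genes had the 6 widest ranges. In scaled CPM, Cd74 had 13.4, 23.3 and 2.45 in replicates 1, 2 and 3, a 9.5-fold range. H2-DMb1, H2-Ab1, H2-Aa and H2-Eb1 spanned 7.42-fold, 6.09-fold, 6.06-fold and 4.51-fold, each lowest in replicate 3. Adjusted p for these 4 was 3.07e-07 or less in the chi-square test with edgeR scaling. Without replicate 3 none of the 4 passed, with ranges of 1.02-fold (H2-Ab1) to 1.45-fold (H2-DMb1) and adjusted p of 0.126 or more, whereas Cd74 still spanned 1.62-fold. Counts behind them were small, at 29, 25, 19 and 7 expected counts in replicate 3 for H2-Aa, H2-Eb1, H2-Ab1 and H2-DMb1. With the other quantifier the fall was smaller. There H2-Aa had 5.52, 6.60 and 5.11 TPM and H2-Eb1 3.45, 2.64 and 2.14 TPM. H2-Ab1 had 4.63, 3.15 and 1.37 TPM and H2-DMb1 1.51, 1.92 and 1.11 TPM. All 4 stayed lowest in replicate 3 in TPM, but H2-Aa did not in estimated counts (341, 512 and 529). Its coding isoforms alone had 2.61, 3.39 and 0.41 TPM there.

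Ciita, the regulator of the class II genes, had 26.8, 18.3 and 18.8 CPM, a 1.47-fold range with the top in replicate 1, whereas in TPM its top was in replicate 3. In neither scaling was replicate 3 its lowest. H2-DMa had 9.63, 6.71 and 6.80. Replicates 2 and 3 did not differ detectably in either (1.03-fold and 1.01-fold).

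B2m had 59.1, 245 and 45.1 CPM, a 5.43-fold range with a chi-square of 4526, highest in replicate 2. Without replicate 2 it spanned 1.31-fold. In the same direction, 24 of 25 ribosomal protein genes were highest in replicate 2 by TPM, and the macrophage markers summed to 643, 1778 and 601 TPM. What these share with B2m was not tested.

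The heavy chains moved less. H2-D1 had 603, 748 and 409 CPM and H2-K1 530, 497 and 362, both lowest in replicate 3. In TPM H2-D1 was also lowest there, but H2-K1 was lowest in replicate 1. Over the 27 genes, 12 (44.4%) were lowest in replicate 3, against 35% of all genes. Nonclassical H2-T24, H2-T22, H2-T10, H2-T23, H2-K2, H2-Q7 and H2-Q10 were instead highest there, by 1.13-fold (H2-T23) to 1.65-fold (H2-Q10) over their lowest library. Nlrc5 was highest there too, with 752, 605 and 766 CPM. The lowest library was replicate 2 for all of these but H2-T24. Without replicate 2, H2-T23, H2-K2, H2-Q7, H2-T10 and Nlrc5 spanned 1.02-fold to 1.10-fold. None of these 5 was then called (edgeR-scaled chi-square, adjusted p of 0.0982 or more). H2-T24, H2-T22 and H2-Q10 stayed called, at 1.41-fold, 1.26-fold and 1.34-fold.

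**Figure D3:**
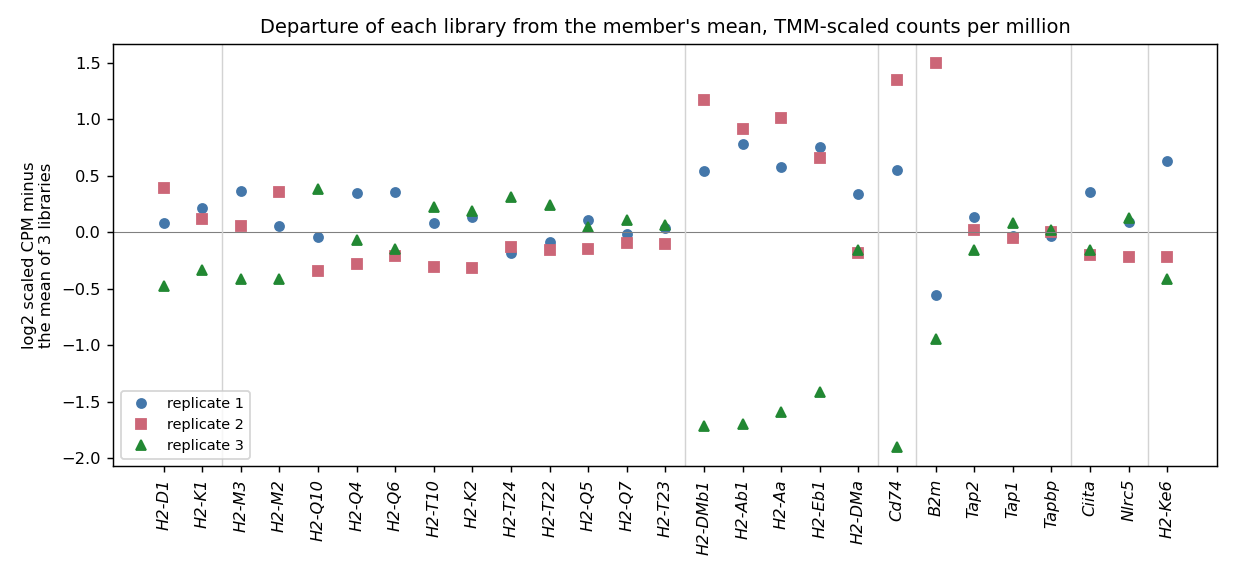
Departure of each library from the gene's mean over libraries, in log2 TMM-scaled CPM, for the 27 genes tested, grouped by class and ordered by range within it. H2-DMb1, H2-Ab1, H2-Aa, H2-Eb1 and Cd74 lie low in replicate 3, B2m lies high in replicate 2, and Tapbp, Tap1, H2-T23 and H2-Q7 stay near 0.

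Chromatin RNA can still hold introns, and the annotation lists isoforms with a retained intron beside protein-coding ones. The kind of isoform that carried the TPM differed within each class. Protein-coding isoforms held 80.4% of the TPM of H2-D1 but 28.0% of that of H2-K1, where retained-intron isoforms held 64.7%. They held all of the TPM of B2m and H2-M3, which have a single annotated kind of isoform, 92.9% of that of Cd74 and 94.9% of that of H2-Aa, but 9.40% of that of Tap2, 17.4% of that of H2-T23 and 20.5% of that of Tap1.

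**Figure D4:**
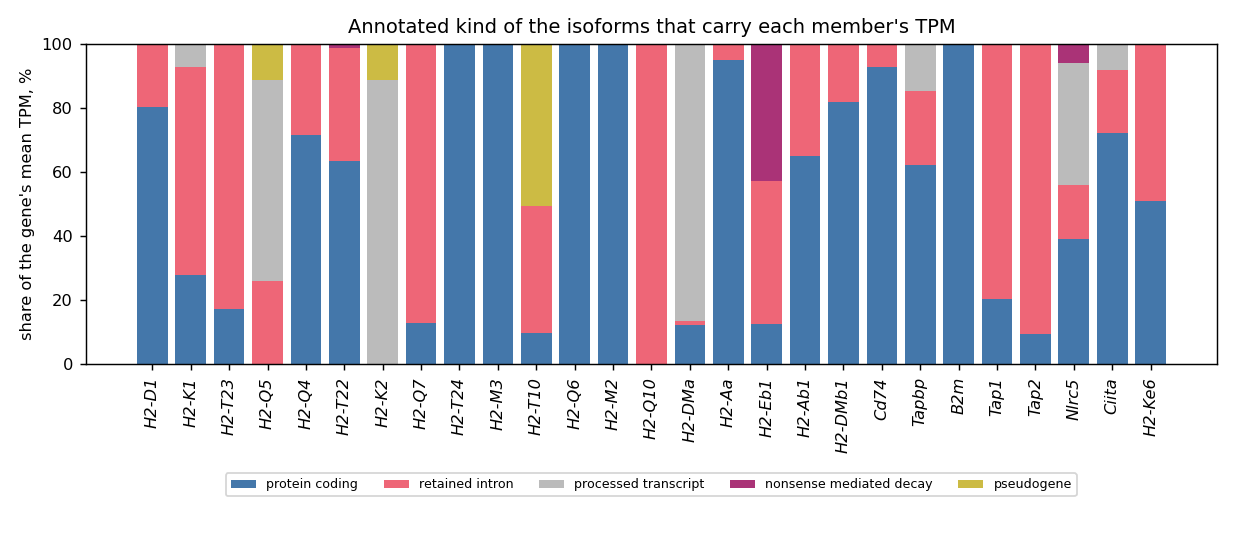
Share of each gene's mean TPM (percent, 3 libraries) held by isoforms of each annotated kind, for the 27 detected genes ordered by class and level. Retained-intron isoforms take most of H2-K1, H2-T23, H2-Q7, Tap1 and Tap2, coding isoforms most of H2-D1, H2-Aa and Cd74, and processed transcripts most of H2-Q5, H2-K2 and H2-DMa.

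The log2 ratio of retained-intron to protein-coding TPM, each with 0.1 added, was tested against 0 with limma in 5603 genes that have both kinds of isoform and at least 50 mean counts. Of 19 genes tested, 6 were called higher, against 19.3% of all genes, and 9 were called lower, against 29.7% of all genes. The median ratio was -0.61 over the 19 genes and -0.23 over all genes tested.

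The 6 with more retained-intron than coding RNA were H2-K1, H2-T23, H2-Q7, H2-Q10, Tap1 and Tap2. Tap2 had log2 ratios of 3.51, 3.02 and 3.26 in replicates 1, 2 and 3, with a mean of 3.26 ± 0.27 (SE) and a limma adjusted p of 0.00102. H2-Q10 was listed at 0 coding TPM beside 1.22 TPM of retained-intron RNA, so no size is given for its ratio. H2-Q7 had a mean of 2.67, H2-T23 of 2.24 and Tap1 of 1.94. H2-K1 had 1.29, 0.65 and 1.85, a mean of 1.26 ± 0.33 (SE) with a limma adjusted p of 0.0238. The call on H2-K1 was lost without replicate 1 (limma adjusted p = 0.110) or replicate 3 (0.0654) and with the other quantifier (0.0567).

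The 9 with more coding than retained-intron RNA came from class I, class II, loading and regulator genes and Cd74. Other kinds of isoform do not enter this ratio. Processed transcripts held 86.6% of the TPM of H2-DMa and 38.2% of that of Nlrc5. H2-D1 had -2.39, -2.37 and -1.40, a mean of -2.05 ± 0.32 (SE) with a limma adjusted p of 0.00468, opposite in sign to H2-K1 in each library. The regulators Nlrc5 and Ciita averaged -1.36 and -1.77, Tapbp -1.41, H2-Q4 -1.33 and H2-T22 -0.89. Cd74, H2-Aa and H2-DMa averaged 0.853, 0.223 and 0.197 TPM of retained-intron RNA beside 11.1, 4.13 and 2.12 TPM of coding RNA. H2-DMa had no retained-intron TPM in replicates 1 and 3, so the size of these ratios depends on the 0.1 added and is not given. Of these, H2-Aa turned to 1.10 with the other quantifier and the call on Cd74 was lost there (limma adjusted p = 0.0712), and H2-Eb1, not called at 1.34, was called at -1.88 (limma adjusted p = 0.0346).

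Leaving out replicate 1 lowered the 9 calls to 5, and the share of all genes called lower to 16.3%, with H2-Q4, H2-Aa, H2-T22 and Nlrc5 lost at limma adjusted p of 0.0553 to 0.165. H2-T22 was also lost without replicate 2 (limma adjusted p = 0.195). H2-T10, H2-Eb1, H2-Ke6 and H2-Ab1 were not called, and H2-T10, with 2.57, 0.85 and 0 coding TPM, ran at 0.18, 2.19 and 6.10 over the libraries. H2-T10 became called without replicate 1 (limma adjusted p = 0.0463) or replicate 2 (6.79e-08) and with the other quantifier (0.00705). H2-Eb1 became called higher without replicate 3 (limma adjusted p = 0.00703), opposite in sign to its call with the other quantifier. Tap2-202, which holds all of the retained-intron TPM of Tap2, has 26.3% of its exon bases in exons of the antisense genes Gm15821 and Gm20496, at 15.5 and 1.43 TPM.

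**Figure D5:**
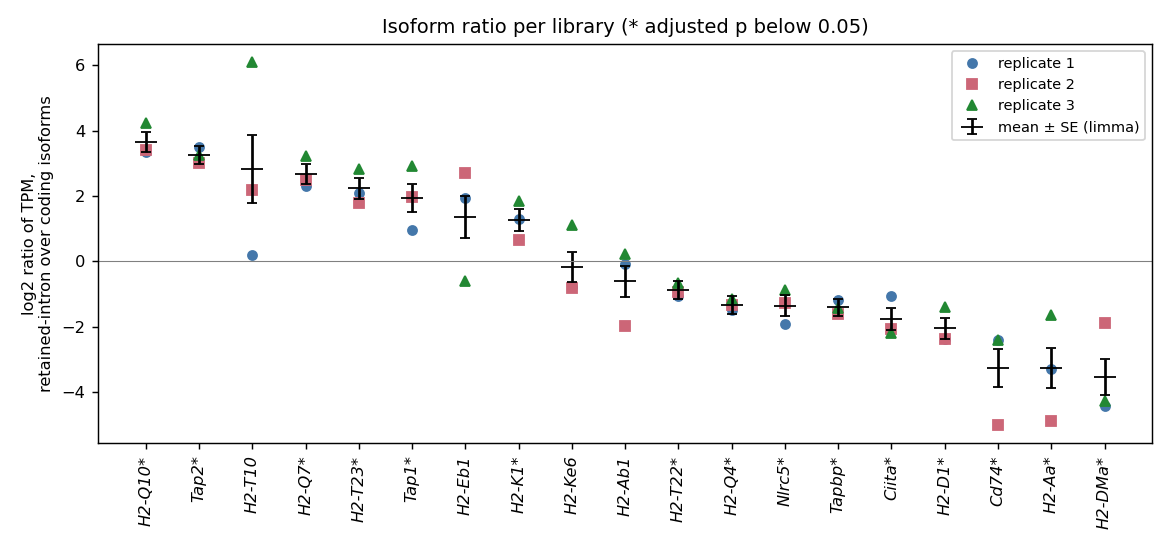
Log2 ratio of summed retained-intron TPM to summed protein-coding TPM (0.1 added to each, which sets the size where one kind is near 0, as in H2-Q10, H2-T10 and H2-DMa) in each library for the 19 genes tested, with the mean and its limma standard error, ordered by mean. A star marks a limma adjusted p below 0.05, with 6 genes called above 0 and 9 below, and the points of H2-K1 lie above 0 and those of H2-D1 below it in all 3 libraries.

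Partner genes outside the 52 were read from lists of each pathway. All 10 genes of class I peptide supply averaged at least 1 TPM, led by the proteasome activator subunits Psme2 (308 ± 26.8 TPM) and Psme1 (118 ± 8.64 TPM) and the immunoproteasome subunit Psmb10 (50.3 ± 3.61 TPM, SD, n = 3), with the peptide editor Tapbpl lowest at 3.22 TPM. Of the 10, 8 differed between libraries in the chi-square test, against 68.8% of all genes. Of 8 tested for isoforms, 5 were called higher in retained-intron RNA (Psmb8, Psmb9, Psmb10, Psme1 and Psme2) and 2 lower (Erap1 and Pdia3), against 19.3% and 29.7% of all genes.

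All 9 genes of the class II processing list, which also holds the transcription factor subunits Rfx5, Rfxap and Rfxank, averaged at least 1 TPM. The highest were the lysosomal proteases Ctsb (372 ± 300 TPM), Ctss (109 ± 83.2 TPM) and Lgmn (72.7 ± 46.2 TPM, SD, n = 3). These means were raised by replicate 2. Ctsb had 182, 718 and 217 TPM in replicates 1, 2 and 3, Ctss 63.2, 205 and 59.3 TPM and Lgmn 53.4, 125 and 39.3 TPM. Ctsl averaged 54.8 TPM, but 124 TPM with the other quantifier, above Ctss (94.6 TPM) and Lgmn (72.4 TPM) there. Ifi30, with 0.66, 3.35 and 0.62 TPM, passed 1 TPM in replicate 2 only. Rfxap, a subunit of the factor that binds the X box, had the lowest mean at 1.17 TPM. Of the 9, 5 differed between libraries, against 68.8% of all genes. They were Ctsb, Ctss, Ctsl, Lgmn and Ifi30, each highest in replicate 2 and lowest in replicate 3 in scaled CPM, by 3.25-fold (Ctsl) to 6.02-fold (Ifi30). In TPM they were also highest in replicate 2, but Ctsb and Ctsl were lowest in replicate 1. March1, Rfx5, Rfxap and Rfxank were not called. Of 6 tested for isoforms, 0 were called higher by limma (0 at an unadjusted p under 0.05 with a positive ratio) and 3 lower (Ctsl, Lgmn and March1), against 19.3% and 29.7% of all genes.

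The 10 transcription factors listed for class I and class II genes all averaged at least 1 TPM, led by Irf1 (535 ± 94.8 TPM), Nfkb1 (263 ± 14.9 TPM) and Irf8 (250 ± 69.6 TPM, SD, n = 3), with Nfyc lowest at 2.13 TPM. All 10 differed between libraries, against 68.8% of all genes, but Irf1 by 1.06-fold. Of 9 tested for isoforms 5 were called higher and 3 lower, against 19.3% and 29.7% of all genes. Of 3 other antigen-presenting molecules none averaged 1 TPM in the gene tables. The CD1 gene Cd1d1 had 0.923 TPM, Mr1, which presents microbial vitamin B2 metabolites, 0.407 TPM and Cd1d2 0 TPM. With the other quantifier Mr1 averaged 3.39 TPM.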

How the data were processed

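Total RNA of the chromatin fraction was sequenced in 3 libraries of 1 group, placed there from the labels. For each library the authors deposited gene and transcript tables of expected counts with TPM, made against mm10 and GENCODE M21 per the deposited notes. The authors also deposited a transcript table of estimated counts and TPM from a second method, called the other quantifier, summed here per gene. In the deposited gene tables a score column gives the spread of each count over reassignments of shared reads, and it was not used in tests. For the aligner, the quantifiers, their versions and strandedness, the labels and headers have no entry. Expected counts were rounded for the chi-square test.

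Symbols came from the identifiers in the deposited transcript tables. Of 81881 gene table entries, 55536 had a mouse Ensembl gene identifier, and for 55450 the symbol equalled that in the GENCODE annotation. Entries without such an identifier held 0.845%, 0.282% and 0.179% of the counts and were left out. Tests used R 4.3.3, edgeR 4.0.16 and limma 3.58.1, called at 0.05. On simulated data 62% of genes shifted 1.5-fold and 100% of those shifted 3-fold were recovered by the chi-square test over 14200 genes, with 7 false calls. For the isoform test over 5603 genes 99% of ratios moved by 2 log2 units were recovered, with 14 false calls. The simulated data followed the model that each test assumes, with counting error only for the chi-square test. Their false calls therefore do not carry over to libraries with further spread. Intervals and floors cover counting error only.

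With 1 group there was no contrast between conditions, and edgeR's quasi-likelihood test had nothing to compare. Genes named are all those averaging at least 1 TPM, all class II members, the extremes of each class, every called member, and the 3 highest and the lowest of each pathway list. Pathway genes named beside calls were added after their values were seen. The members and lists were chosen with earlier results of these data known.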

Additional observations from a re-analysis of the deposited data

How the results depend on the processing

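Alternatives were pseudocounts of 1 and 0.01, the other quantifier, TPM recomputed over protein-coding genes, only members of at least 1 TPM, means in place of medians and each library left out, and for levels scaled CPM and other thresholds, for tests DESeq2 size factors, other count filters and a pseudocount of 1. Protein-coding isoforms alone were added after the data were seen. In the order of the first 6, the classical minus class II difference in median log2 level was 8.92, 12.001, 8.002, 11.86, 7.45 and 9.87. The classical minus nonclassical difference was 9.10, 15.74, 10.47, 14.62, 5.16 and 9.37, and 11.31 with coding isoforms. The nonclassical minus class II difference was -0.18, -3.74, -2.47 and -2.75, then 2.29 and 0.51, both reversed in sign, and -0.51 with coding isoforms. The last 2 differences use a nonclassical median that is at 0 with all members, so they move with the constant added. Calls between libraries were 12 with a 1.5-fold range required, where 44.3% of all genes were called, and 27 of 27 with DESeq2 size factors. Genes called lower in the isoform ratio numbered 5 to 9 with a library left out. TPM over protein-coding genes multiplied the levels of the 27 detected genes by 4.38 to 4.76, and the other quantifier moved 12 of them by more than their spread. No paired analysis was possible because the samples form 1 group. Depth limits H2-Aa, H2-Ab1, H2-Eb1 and H2-DMb1, with 7 to 149 counts per library, and the 19 genes at 0.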
